A study of Mus musculus with 9 samples.

Results

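The comparison described here set the cells treated with either of the neurogenic compounds NAT and P7C3-A20 against cells given only the vehicle DMSO, and asked which transcript levels the compounds moved in common. It used all 9 libraries of the study, 6 treated and 3 vehicle, with NAT and P7C3-A20 weighted equally, and 13839 of the 23420 gene rows, those with at least 1 TPM (transcript abundance, scaled so that each library sums to 1000000) in at least 3 libraries. The cells were neural stem cells from the hippocampus of wild-type C57BL/6J mice aged 2 days. Every group was in drop-out medium, which lacks the mitogens bFGF and EGF and promotes differentiation, so the vehicle cells were differentiating too. The groups were 3 µM NAT, which the labels call a new small molecule, 3 µM P7C3-A20 and DMSO, with 3 libraries each. The labels name them biological replicates without saying whether they were separate cultures or animals and give no treatment time. The p-values thus rest on library-to-library spread, which may be technical.

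P7C3-A20 belongs to the aminopropyl carbazoles, compounds known for protecting newborn hippocampal neurons, and has been reported to act through NAMPT, the enzyme that limits NAD salvage. When neural stem cells lose bFGF and EGF they leave the cell cycle and become astrocytes, neurons or oligodendrocyte lineage cells. Immediate early genes such as Fos and Btg2 respond within minutes to growth factor, calcium and cAMP signals, and Btg2 in addition slows the cell cycle and marks progenitors that are about to produce neurons.

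Library depth ranged from 11387644 to 13514399 recovered reads over the DMSO and NAT libraries and from 15291621 to 16821164 over the P7C3-A20 libraries. P7C3-A20 replicate 3 stood apart. Its reads differed from those of the other P7C3-A20 libraries with a chi-square per gene of 4.28 and 4.86, against 1.37 to 2.44 for every other pair within a group. For each library, the deviation of log2(TPM + 1) from the mean of all 9 libraries was regressed on transcript GC content. Per 10 percentage points the slope was 0.114 in P7C3-A20 replicate 3 and between 0.0159 and 0.0366 in the other P7C3-A20 libraries. In the NAT and DMSO libraries it lay between -0.062 and 0.00704. Some results are therefore also given without P7C3-A20 replicate 3.

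The libraries expressed neural lineage genes. Fabp7, the fatty acid binding protein of radial glia, averaged 12202 TPM with DMSO, and the radial glial genes Vim and Sox2 averaged 3791 and 607 TPM. The 29 intermediate progenitor and neuroblast genes covered a wide range of levels. With DMSO the transcription factor gene Sox4 averaged 1082 TPM, Dpysl3 363 TPM and Dcx, the microtubule protein of migrating neuroblasts, 26.8 TPM, while 9 of the 29 stayed below 1 TPM in all libraries, with Neurog1 at 0 in all. Markers of cells outside the neural lineage were low: the microglial genes Cx3cr1, C1qc, Trem2 and Ctss, the endothelial genes Cdh5, Cldn5 and Ly6c1 and the globin genes Hba-a1, Hba-a2, Hbb-b1, Hbb-b2 and Hbb-bh1 were at 0 in all libraries. The summed level of 16 microglia and macrophage markers was 77.0 to 81.3 TPM with DMSO, 71.7 to 77.1 with NAT and 79.2 to 81.5 with P7C3-A20. That of 12 endothelial markers was 6.36 to 6.60, 6.95 to 8.55 and 6.83 to 7.53 TPM in the same order. In bulk RNA, fewer cells of a type and less RNA per cell cannot be told apart.

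Few genes passed the test of treated against vehicle libraries. With limma-trend on log2(TPM + 1), 3 of 13839 genes (0.0217%) passed a Benjamini-Hochberg adjusted p of 0.05, and all of them were lower with the compounds: Btg2 and the microRNA genes Mir149 and Mir365-2. Without P7C3-A20 replicate 3 the number was 8, of which 2 were higher. At an unadjusted p of 0.05, 1394 genes were higher (10.1%) and 424 lower (3.06%). With voom, limma's count-based weighting, on the whole reads recovered from the TPM steps, 73 genes passed (0.528%), 38 higher (0.275%) and 35 lower (0.253%). With each library's GC trend removed 57 passed, 23 higher and 34 lower, and 48 of the 73 were among them. The number of 73 moved between 7 and 305 as single libraries were left out, the highest value being that without P7C3-A20 replicate 3 and the lowest that without DMSO replicate 1. Of the 25 voom-called genes named by the rule or chosen after their values were seen, Btg2, Fosb, Clk1 and Lars2 were called by voom whichever single library was left out, while the number called dropped to 5 when DMSO replicate 1 was omitted, to 7 when DMSO replicate 2 was, to 8 for NAT replicate 2 and to 14 for NAT replicate 3, and stayed between 20 and 25 on omission of any other library.

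The split between higher and lower genes depended on the scaling. All 6 treated libraries lay above all 3 DMSO libraries for 596 genes (4.31%) and below them for 191 (1.38%), so 75.7% of the separated genes were higher. After quantile normalization the numbers were 342 and 348, with 49.6% higher, after removal of each library's GC trend 326 and 350, with 48.2% higher, on depth-scaled recovered reads 344 and 352, with 49.4% higher, and on TPM rescaled without the ribosomal RNA precursor Rn45s 472 and 266, with 64% higher. The median log2 fold change over all genes tested was 0.021 on the deposited scale and -0.002 after quantile normalization.

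The expression limit decided how the microRNA genes entered. Exactly 3 libraries reached 1 TPM for 181 rows, and for 2 of these the libraries were the 3 DMSO ones: Mir149 and Mir365-2. They entered the test only through the vehicle group and so had to differ. Just inside the limit, the third highest value of 4930414N06Rik was 1.0014 TPM, and just outside it, that of Epha10 was 0.9988 TPM.

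The mature products of these microRNA genes and of Mir339, which the rule for named genes added, are shown first because their seeds (bases 2 to 8, in capitals, from RefSeq, GRCm38.p6) set which messages they can pair with.
miR-149-5p: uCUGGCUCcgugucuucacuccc
miR-149-3p: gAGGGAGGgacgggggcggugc
miR-365-2-5p: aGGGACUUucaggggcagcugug
miR-365-3p: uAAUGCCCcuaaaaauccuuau
miR-339-5p: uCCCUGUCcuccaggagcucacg
miR-339-3p: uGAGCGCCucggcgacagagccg
No seed is shared among the 6. Mir149 lies at chr1:92850378-92850443 on the plus strand within an intron of Gpc1, Mir365-2 at chr11:79726400-79726511 on the plus strand with no overlapping gene, and Mir339 at chr5:139369650-139369745 on the minus strand within an intron of 3110082I17Rik.

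The values of the microRNA genes rest on single reads. Whether these reads came from the mature products, from their precursors or, for Mir149 and Mir339, from the surrounding genes was not tested. Mir149 was at 3.28, 3.54 and 3.01 TPM in the DMSO libraries and at 0 in the 6 treated ones, and Mir365-2 at 1.93, 2.09 and 1.78 TPM and at 0. Each of these DMSO values was 1 read. The adjusted p-values from limma were 0.000155 for Mir149 and 0.00307 for Mir365-2, and from voom on the reads 0.158 for both. Mir339 had 2, 1 and 1 reads with DMSO and 1 read over the treated libraries, in P7C3-A20 replicate 3, and missed the threshold with a limma adjusted p of 0.142. Without that library, the only treated one with a read, the limma adjusted p was 0.0178. Counts this low are at or under the 3 reads that a count of 0 allows, so no fold is given, and a minimum of 10 reads in at least 3 libraries, which removed the microRNA genes, left Btg2 as the 1 gene that passed.

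Btg2, an antiproliferative immediate early gene, fell with the compounds. It stood at 162, 147 and 163 TPM in DMSO replicates 1 to 3, at 125, 119 and 117 TPM with NAT and at 134, 133 and 135 TPM with P7C3-A20. All 6 treated libraries were below the lowest DMSO library, and the NAT libraries were below the P7C3-A20 libraries. The group means were 157 ± 9.15 (SD, n = 3), 120 ± 3.98 and 134 ± 0.806 TPM. The pooled log2 fold change was -0.30 ± 0.04 (SE, 95% interval -0.39 to -0.22), a level 0.81 times that of the vehicle, and passed limma at an adjusted p of 0.0309. Side by side, and with shared DMSO libraries, NAT gave -0.38 (limma adjusted p = 0.0142) and P7C3-A20 -0.23 (limma adjusted p = 0.139). The difference between the compounds was -0.15 (-0.25 to -0.06). Its estimate does not use the DMSO libraries, but its interval and p-values use the spread within every group, DMSO included. Limma gave an adjusted p of 0.191 and voom one of 0.0352, which became 0.0584 with the GC trend removed. The pooled limma call was lost without DMSO replicate 1 (adjusted p = 0.250), DMSO replicate 3 (0.0868), NAT replicate 2 (0.0696), NAT replicate 3 (0.122), P7C3-A20 replicate 1 (0.111) or P7C3-A20 replicate 2 (0.129), at log2 fold changes of -0.30 to -0.28, while the voom adjusted p was 1.28e-05 with all libraries and at most 0.00109 with any 1 left out. It was also lost with a minimum of 5 TPM (0.0553), with no filter (0.0717), with a pseudocount of 0.1 (0.0518) and with the 6 treated libraries as 1 group (0.165).

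**Figure D1:**
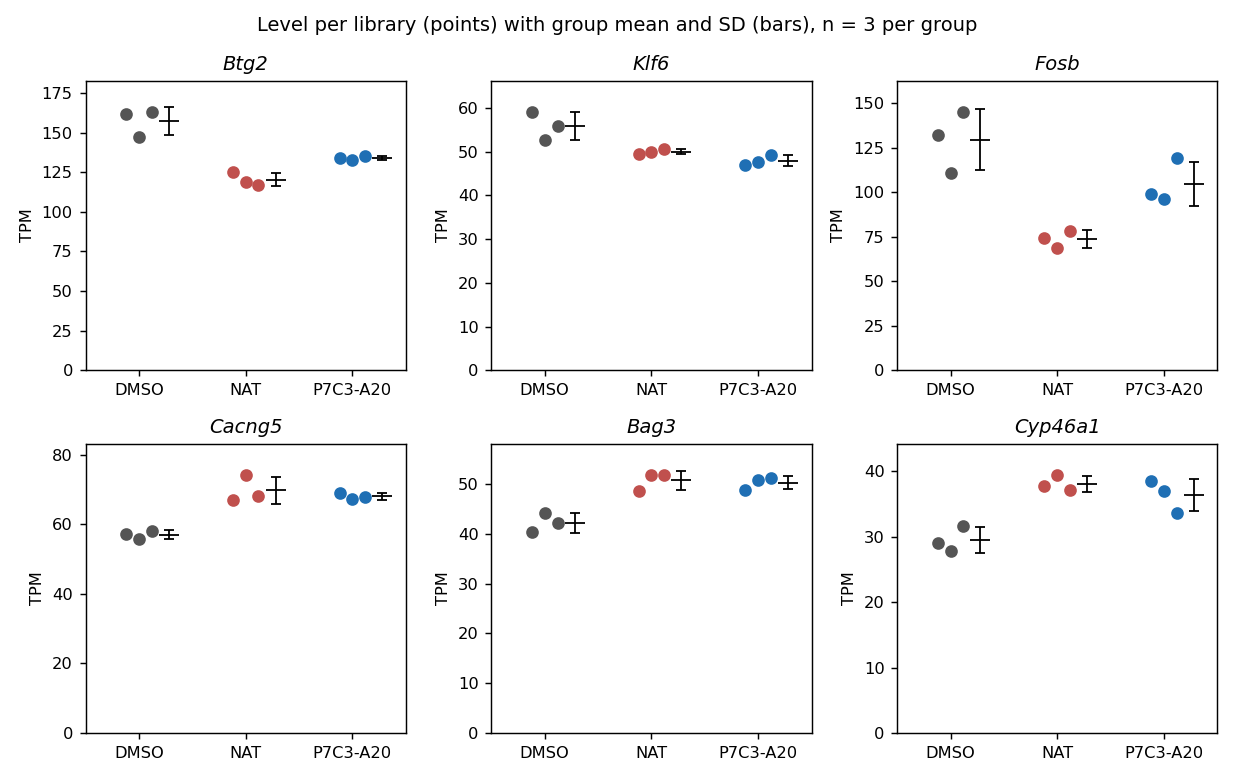
Levels in TPM (vertical axes, from 0) of Btg2, Klf6, Fosb, Cacng5, Bag3 and Cyp46a1 in each of the 9 libraries (points) by treatment, with the group mean and SD (bars, n = 3). Btg2 fell from 157 TPM with DMSO to 120 with NAT and 134 with P7C3-A20, whereas 1 P7C3-A20 library of Fosb overlaps the DMSO range.

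The bases before the start site of Btg2, and of the immediate early gene Fosb for comparison, are shown because cAMP response elements in such promoters are a textbook route by which cAMP and calcium signals reach these genes. Both are read on the gene's strand from RefSeq promoters (GRCm38.p6), with the match in capitals. Btg2, chr1:134079156-134079405 on the minus strand, holds the full element TGACGTCA, which begins 166 bases before the start, and Fosb, chr7:19310046-19310295 on the minus strand, holds the half-site TGACG 60 bases before it.
Btg2: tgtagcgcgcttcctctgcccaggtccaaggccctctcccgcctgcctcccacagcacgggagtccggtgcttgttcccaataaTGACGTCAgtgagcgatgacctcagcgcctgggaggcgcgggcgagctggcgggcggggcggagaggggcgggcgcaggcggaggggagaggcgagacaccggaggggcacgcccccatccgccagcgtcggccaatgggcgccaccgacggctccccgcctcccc
Fosb: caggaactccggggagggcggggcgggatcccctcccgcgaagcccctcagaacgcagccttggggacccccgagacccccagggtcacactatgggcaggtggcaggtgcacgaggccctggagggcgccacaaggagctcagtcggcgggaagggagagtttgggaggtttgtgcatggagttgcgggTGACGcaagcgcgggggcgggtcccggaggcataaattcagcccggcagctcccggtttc
On either strand TGACGTCA occurred in 1.55% of 32851 promoters and in 3 of the 30 immediate early promoters found (Btg2, Dusp1 and Maff), and TGACG, which the full element contains, in 17.8% and in 19 of 30. The AP-1 site TGANTCA occurred in 6.75% and in 1 of 30, and the CArG box in 1.47% and in 3 of 30. A match describes letters only and was not tied to any difference in level.

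Among the 37 immediate early genes tested, 1 (Btg2) passed the pooled limma test, 23 had a pooled log2 fold change below 0, and the median was -0.079, beside 0.021 over all genes. With voom 6 were lower (Fosb, Btg2, Ier2, Klf6, Fos and Jun) and none higher, where 0.253% and 0.275% of all genes were. All of these but Klf6 also differed between the compounds by voom. The adjusted p was 0.00122 for Fosb and for Ier2, 0.00789 for Fos, 0.0327 for Jun and 0.0352 for Btg2. For Ier2 voom gave -0.45 with NAT and -0.02 with P7C3-A20. With the GC trend removed Klf6 (0.0567) dropped out of the 6 voom calls and Klf4 (0.0382) entered. At an unadjusted limma p of 0.05, 9 were lower and 2 higher, beside 3.06% and 10.1% of all genes. The list median was -0.14 for NAT and 0.008 for P7C3-A20, with the DMSO libraries shared, and 19 of the 37 differed between the compounds at an unadjusted p of 0.05, beside 15.8% of all genes. Those values come from all libraries with the GC trend left in. With it removed the pooled list median was -0.137.

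Fosb, an AP-1 subunit, stood at 132, 111 and 145 TPM with DMSO, 74.5, 68.6 and 78.3 TPM with NAT and 98.9, 96.3 and 119 TPM with P7C3-A20. The NAT libraries were below every other library, while P7C3-A20 replicate 3 overlapped the DMSO range. The pooled log2 fold change of -0.55 ± 0.09 missed the threshold with limma (adjusted p = 0.128) and passed without P7C3-A20 replicate 3 (0.0355), without DMSO replicate 2 (0.0213) and with voom (1.14e-05). NAT gave -0.79 (limma adjusted p = 0.0234) and P7C3-A20 -0.30 (0.203). The NAT value lay 0.49 below the P7C3-A20 value, a difference of -0.49 (-0.71 to -0.28) whose adjusted p was 0.168 with limma and 0.00122 with voom.

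Other immediate early genes divided by how alike the compounds were. Klf6, a Krüppel-like factor, was at 59.1, 52.6 and 56.0 TPM with DMSO, 49.4 to 50.6 TPM with NAT and 47.0, 47.6 and 49.3 TPM with P7C3-A20, with no overlap. Its pooled log2 fold change was -0.19 ± 0.04 (limma adjusted p = 0.153, voom 0.0173, and 0.0567 by voom with the GC trend removed), and the compounds differed by 0.06 (-0.04 to 0.16). Klf4, another factor of that family, averaged 8.58, 6.18 and 6.82 TPM in the order DMSO, NAT and P7C3-A20 and did not overlap either, at -0.36 (voom adjusted p = 0.0725). By contrast Ier2 averaged 153, 115 and 153 TPM, Nr4a1, an orphan nuclear receptor, 58.7, 40.2 and 61.3 TPM, and Zfp36, which destabilizes AU-rich messages, 74.9, 59.7 and 79.4 TPM, the P7C3-A20 means being at or above those of the vehicle. Egr3, a zinc finger factor, was at 14.4, 9.90 and 12.2 TPM with DMSO, 7.46 to 8.17 with NAT and 9.55 to 10.9 with P7C3-A20, a pooled value of -0.38 ± 0.10 (limma adjusted p = 0.192). Fos itself averaged 843, 687 and 813 TPM, a pooled log2 fold change of -0.17 ± 0.06 (limma adjusted p = 0.292, voom 0.0412).

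**Figure D2:**
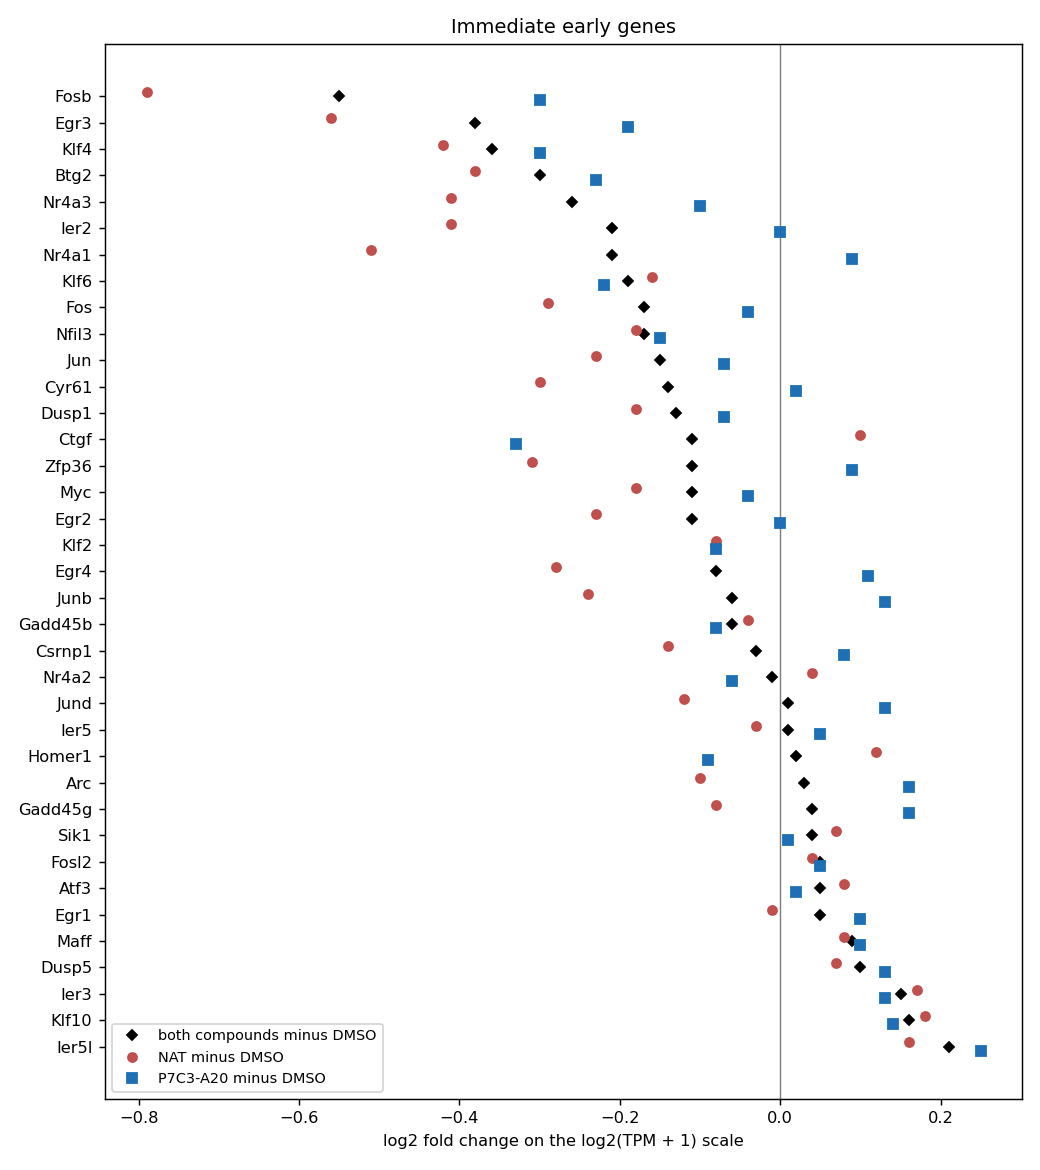
Log2 fold changes against DMSO (horizontal axis, log2(TPM + 1) scale) of the 37 immediate early genes, for NAT (circles), P7C3-A20 (squares) and both compounds weighted equally (diamonds), ordered by the pooled value. Both compounds lie left of 0 for Fosb, Egr3, Klf4, Btg2 and Klf6, while Ier2, Nr4a1 and Zfp36 lie left of 0 for NAT and at or right of it for P7C3-A20.

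No gene was called higher by limma in the pooled comparison, and the 10 genes of lowest p among those whose treated libraries all lay above the DMSO libraries missed the threshold, with adjusted p-values of 0.0843 to 0.142. With voom 9 of the 10 passed, Rrbp1 being the exception at 0.0593. Of these 9, the voom calls of Cacng5, Ptprn, Bag3 and Kif1c held with the GC trend removed, whereas Cyp46a1, Camk2b, Sh3pxd2b, Slc3a2 and Sirpa then missed at adjusted p-values of 0.0523 to 0.0676. Cacng5, an auxiliary subunit of AMPA receptors, had the lowest p. It stood at 57.3, 55.6 and 58.1 TPM with DMSO, 66.8, 74.2 and 68.2 TPM with NAT and 68.9, 67.1 and 67.9 TPM with P7C3-A20. The group means of 57.0 ± 1.30, 69.7 ± 3.92 and 67.9 ± 0.906 TPM gave a pooled log2 fold change of 0.27 ± 0.04 (0.18 to 0.35), with an adjusted p of 0.0843 by limma and 0.00545 by voom. Without NAT replicate 1 the limma adjusted p was 0.0453, and without DMSO replicate 2 Cacng5 missed with voom too. NAT gave 0.28 and P7C3-A20 0.25, and they differed by 0.04 (-0.06 to 0.13).

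Cyp46a1, the enzyme that turns brain cholesterol into 24-hydroxycholesterol, had the highest pooled fold of these genes. It was at 29.0, 27.8 and 31.7 TPM with DMSO, 37.8, 39.5 and 37.1 TPM with NAT and 38.5, 37.0 and 33.7 TPM with P7C3-A20. The lowest treated value, P7C3-A20 replicate 3, was above the highest vehicle value. The pooled log2 fold change was 0.33 ± 0.05, or 1.25 times the vehicle level on that scale, with adjusted p-values of 0.128 by limma and 0.0198 by voom (0.0570 with the GC trend removed).

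Bag3, a co-chaperone of selective autophagy, was at 40.3, 44.3 and 42.2 TPM with DMSO, 48.6, 51.9 and 51.8 TPM with NAT and 48.8, 50.9 and 51.3 TPM with P7C3-A20, a pooled 0.25 ± 0.04 (voom adjusted p = 0.0250). The compounds differed by 0.01 (-0.09 to 0.12), and the heat shock genes Bag3 is listed with had a median of -0.001 with 9 of 20 above 0. Ptprn, a dense core vesicle protein, was at 46.4 to 48.0 TPM with DMSO, 53.9 to 59.6 with NAT and 53.4 to 55.7 with P7C3-A20 (0.25 ± 0.04, voom adjusted p = 0.0150). Camk2b, a subunit of the synaptic calcium and calmodulin kinase, was at 81.4 to 85.0, 91.8 to 95.1 and 94.9 to 96.9 TPM (0.17 ± 0.03, voom adjusted p = 0.0389).

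Slc3a2, the heavy chain of the large amino acid transporter, stood at 156, 148 and 157 TPM with DMSO, 167, 178 and 172 TPM with NAT and 174, 177 and 172 TPM with P7C3-A20, a pooled 0.17 ± 0.03. Its light chain partner Slc7a5, chosen after its values were seen, stood at 160 to 170, 181 to 199 and 179 to 194 TPM, a pooled 0.20 ± 0.04. Neither overlapped the vehicle range, and both passed with voom (adjusted p = 0.0369 and 0.0182) and missed with limma (0.142 each). With the GC trend removed both missed with voom too (0.0668 and 0.0676). Of the 31 genes of the ATF4 and amino acid response tested, these were the 2 that voom called higher, and 0 were lower, beside 0.275% and 0.253% of all genes. The list median was 0.049. Sh3pxd2b, a podosome scaffold, Kif1c, a kinesin motor, Sirpa, a receptor for Cd47, and Rrbp1, a ribosome receptor of the endoplasmic reticulum, had pooled values of 0.18, 0.19, 0.20 and 0.15. For all 10 genes the unadjusted limma p for NAT against P7C3-A20 was between 0.0674 and 0.813. The rule that named them asked for no overlap with the vehicle, which favours genes on which the compounds lie close. Of all 596 genes with every treated library above the vehicle, 4.87% had such a p below 0.05, and of the 191 below it 7.85%, beside 15.8% of all genes. The closeness of the compounds for genes so named is therefore no separate result.

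**Figure D3:**
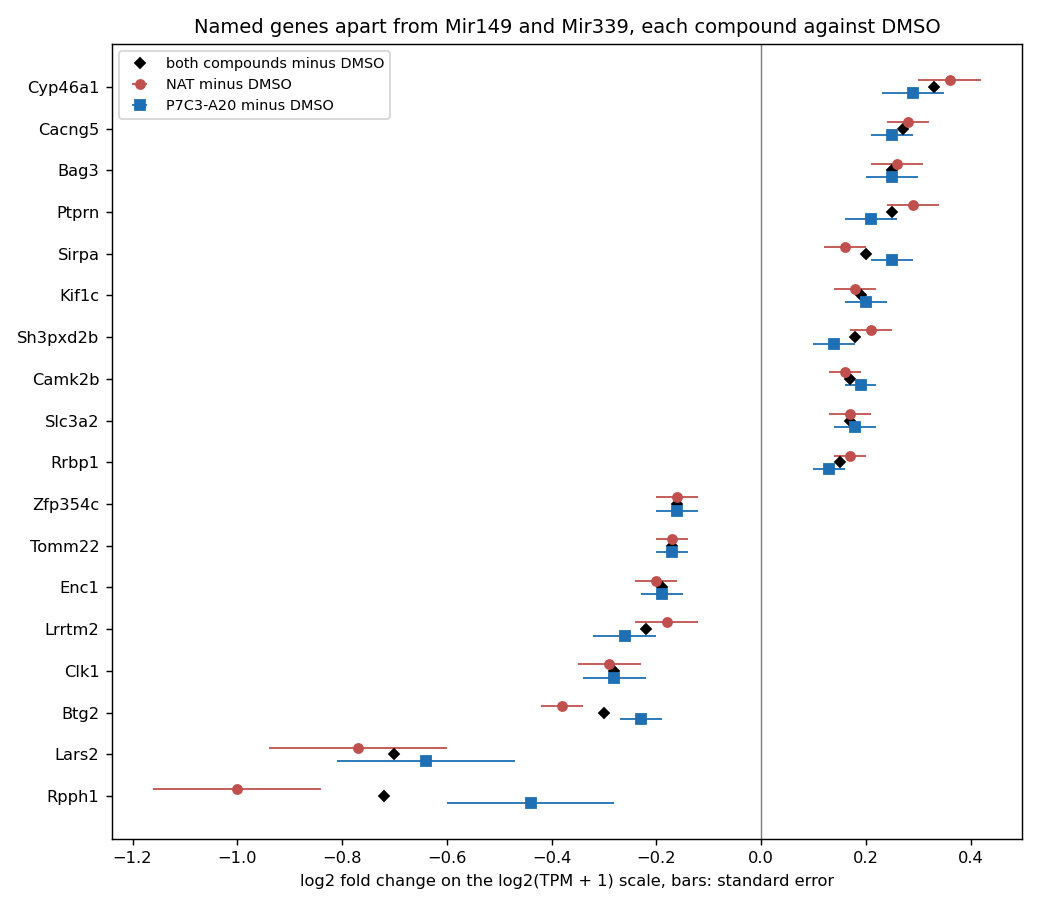
Log2 fold changes against DMSO (horizontal axis, log2(TPM + 1) scale, bars: standard error) of the 10 genes named on the higher side and of those named on the lower side without the microRNA genes, for NAT (circles), P7C3-A20 (squares) and both weighted equally (diamonds). The higher genes lie between 0.15 and 0.33 in the pooled value, and among the genes plotted the compounds are farthest apart for Btg2 and Rpph1.

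Below the vehicle, beside Btg2 and the microRNA genes, Tomm22, Clk1, Enc1, Zfp354c, Lrrtm2, Lars2 and Rpph1 were named, all of which missed the limma threshold (adjusted p of 0.128 to 0.153) and passed with voom, Zfp354c only while the GC trend was left in (0.0537 without it). Tomm22, a receptor of the mitochondrial import pore, was at 190, 197 and 199 TPM with DMSO, 179, 168 and 172 TPM with NAT and 173, 174 and 175 TPM with P7C3-A20, a pooled -0.17 ± 0.03. Clk1, a kinase of splicing factors, was at 75.6, 77.0 and 86.4 TPM with DMSO, 61.5, 63.2 and 70.9 TPM with NAT and 64.9, 63.8 and 67.5 TPM with P7C3-A20, a pooled -0.28 ± 0.05 (voom adjusted p = 0.00149). The compounds were nearly level for both, with differences of -0.01 (-0.08 to 0.06) and -0.01 (-0.14 to 0.13).

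Enc1, an actin-binding protein of the developing nervous system, was at 149 to 156 TPM with DMSO, 130 to 135 with NAT and 128, 131 and 144 with P7C3-A20, where replicate 3 was the highest. Its pooled value was -0.19 ± 0.04 (voom adjusted p = 0.00777), and without P7C3-A20 replicate 3 it passed limma at 0.0351. Lrrtm2, a synaptic adhesion protein, was at 21.8 to 23.7, 19.1 to 20.5 and 18.5 to 19.3 TPM (-0.22 ± 0.05), and Zfp354c, a zinc finger gene, at 54.9 to 56.9, 48.8 to 51.6 and 48.5 to 50.9 TPM (-0.16 ± 0.03). None of these ranges overlapped that of the vehicle.

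Against the shared DMSO libraries, limma called 4 genes for NAT (0.0289%) and 3 for P7C3-A20 (0.0217%), and voom 29 (0.21%) and 270 (1.95%). With the GC trend removed the voom numbers were 55 for NAT and 49 for P7C3-A20, and without DMSO replicate 1 they were 12 and 0, with 1540 genes at an unadjusted voom p of 0.05 for P7C3-A20. The compounds themselves were compared at the same dose, a single pair. With limma 0 of 13839 genes passed for NAT against P7C3-A20, 2188 had an unadjusted p below 0.05 (15.8%), and voom called 301 (2.18%), or 64 with the GC trend removed. Without P7C3-A20 replicate 3 voom called 85 for that comparison, 230 for NAT against DMSO and 244 for P7C3-A20 against DMSO. Of the 38 genes that voom called higher in the pooled comparison, 1 (2.63%) differed between the compounds at an unadjusted limma p of 0.05, and of the 35 called lower, 11 (31.4%) did. By the adjusted voom p, 8 of the 73 pooled calls differed between the compounds, all of them among the lower genes. For the higher genes the median absolute difference between the compounds was 0.051, and the median absolute pooled change was 0.228. For the lower genes they were 0.098 and 0.193. C1ql1, a secreted synapse organizer, was among the genes called by voom for the difference between the compounds. It was at 45.9, 48.6 and 49.8 TPM with DMSO, 48.4, 51.5 and 52.9 TPM with NAT and 65.5, 63.1 and 60.3 TPM with P7C3-A20, so that the pooled 0.23 came from 0.08 for NAT and 0.38 for P7C3-A20, which differed by -0.30 (-0.41 to -0.19, adjusted p of 0.168 with limma, 0.0114 with voom and 0.101 with voom and the GC trend removed). A p that misses the threshold does not show that the compounds act alike.

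Gene lists were described by counts and medians, since no member other than Btg2 passed limma. Over the 31 lists with at least 5 tested members the pooled medians ran from -0.081 to 0.078, and 60.2% of all genes tested had a pooled value above 0. The intermediate progenitor and neuroblast list had the lowest median, with 15 of 19 tested genes below 0 and 3 lower at an unadjusted limma p of 0.05, beside 3.06% of all genes, and the medians for NAT and P7C3-A20 were -0.077 and -0.066. Members below the vehicle in all treated libraries were Dpysl3, a growth cone protein, at 359, 368 and 361 TPM with DMSO, 328 to 347 with NAT and 329 to 350 with P7C3-A20 (-0.10 ± 0.03, limma adjusted p = 0.204, voom 0.0721); Neurog2, a proneural factor, at 2.83 to 2.87, 1.97 to 2.76 and 2.04 to 2.11 TPM (-0.26 ± 0.11, limma adjusted p = 0.329); and Elavl4, a neuronal RNA-binding protein, at 31.0 to 32.2, 29.1 to 30.4 and 28.5 to 30.8 TPM (-0.09 ± 0.04, limma adjusted p = 0.408). These were 3 of the 19 tested, beside 1.38% of all genes. Dcx averaged 26.8, 25.4 and 25.1 TPM, and Tubb3 46.9, 45.5 and 50.5 TPM. With the GC trend removed the list median was -0.073.

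The 30 neuronal and synaptic genes had a median of 0.058, with 21 above 0. Voom called Cacng5 and Camk2b higher and none lower, beside 0.275% and 0.253% of all genes. With the GC trend removed it called Cacng5 alone. Dlg4, the postsynaptic scaffold PSD-95, averaged 64.7, 72.8 and 73.1 TPM and did not overlap the vehicle (0.17, voom adjusted p = 0.123), whereas Map2 averaged 640, 638 and 611 TPM and Snap25 14.3, 12.8 and 15.1 TPM.

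Among 30 astrocyte genes, 26 had a pooled value above 0 and the median was 0.061, with 0.096 for NAT and 0.062 for P7C3-A20. Cyp46a1, which that list holds although the enzyme is known mainly from neurons, was the 1 member that passed with voom, where 0.275% of all genes were higher. With the GC trend removed 0 members passed. Of the 30, 10 were higher at an unadjusted limma p of 0.05, beside 10.1% of all genes. Ntsr2, a neurotensin receptor, was at 47.0 to 55.2 TPM with DMSO, 51.8 to 60.4 with NAT and 58.5 to 62.9 with P7C3-A20 (0.23 ± 0.06, limma adjusted p = 0.192), and Gfap, the astrocyte filament gene, averaged 821, 967 and 888 TPM (0.18). With the GC trend removed the list median was 0.030.

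**Figure D4:**
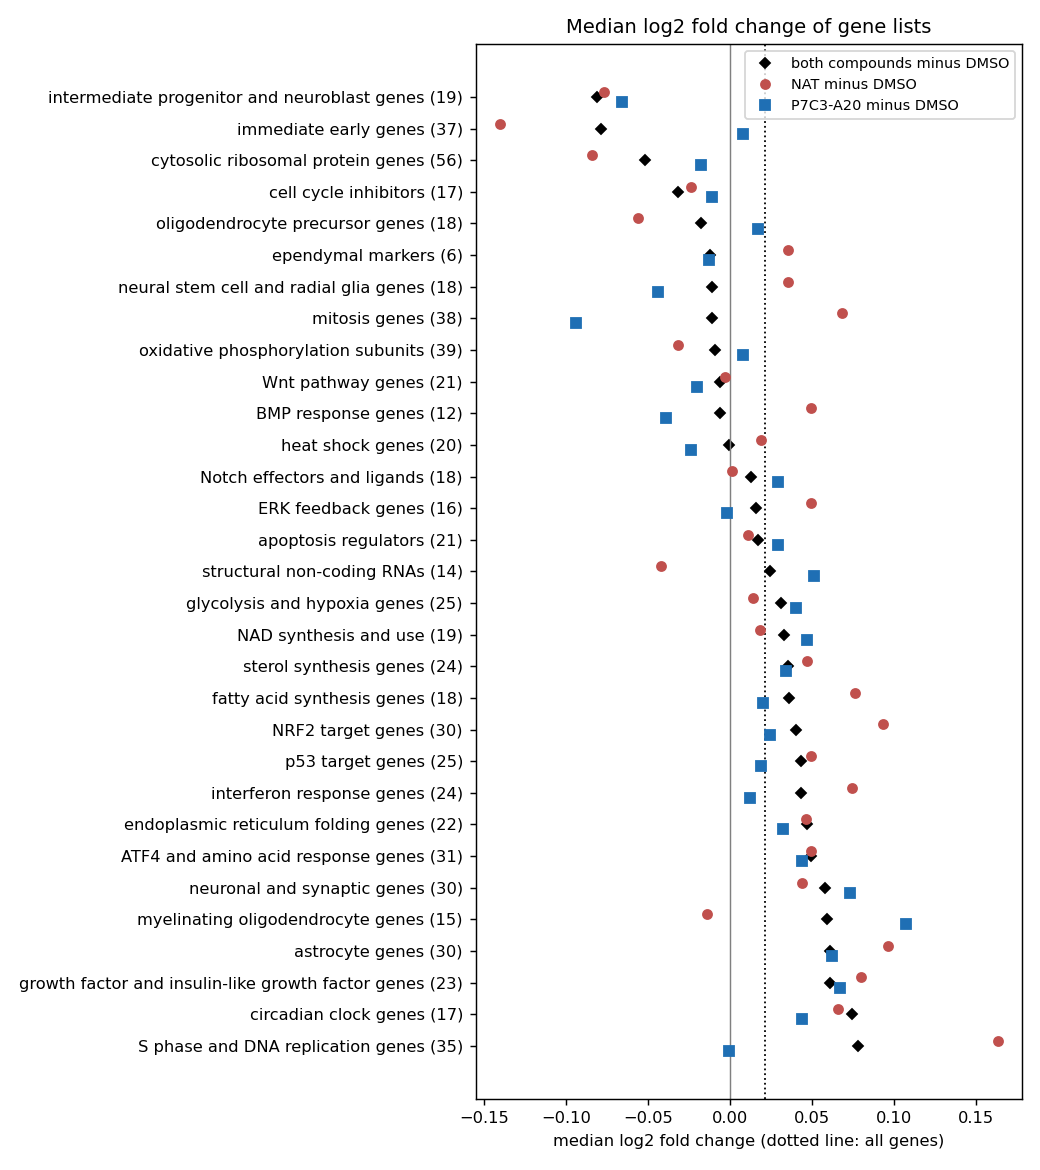
Median log2 fold change against DMSO (horizontal axis) of the 31 gene lists with at least 5 tested members (number in brackets), for NAT (circles), P7C3-A20 (squares) and both weighted equally (diamonds). The dotted line marks the median of all genes tested, 0.021. NAT and P7C3-A20 lie close together for the neuroblast and growth factor lists and far apart for the S phase, mitosis and immediate early lists.

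Genes of cell division had unlike medians with the compounds. Of 35 S phase and DNA replication genes 32 had a pooled value above 0, and the list median of 0.078 came from 0.163 for NAT and -0.001 for P7C3-A20, with 18 members differing between the compounds at an unadjusted p of 0.05, beside 15.8% of all genes. Members whose treated libraries were all above the vehicle were Pold1, a polymerase delta subunit, at 25.6 to 26.1 TPM with DMSO, 28.2 to 30.5 with NAT and 29.5 to 30.0 with P7C3-A20 (0.18 ± 0.04, limma adjusted p = 0.153), Ccne1, cyclin E, at up to 17.0, 18.9 to 20.6 and 17.7 to 20.1 TPM (0.22 ± 0.06, 0.175), and Tk1, thymidine kinase, at 28.9 to 30.1, 33.2 to 37.9 and 31.5 to 33.5 TPM (0.18 ± 0.05, 0.192). These were 3 of the 35, beside 4.31% of all genes. None of the 35 passed with limma or voom, and 8 were higher and 0 lower at an unadjusted limma p of 0.05, beside 10.1% and 3.06% of all genes. The 38 mitosis genes had a pooled median of -0.011, made of 0.068 for NAT and -0.094 for P7C3-A20, and 23 differed between the compounds at an unadjusted p of 0.05. With the GC trend removed the pooled medians of the S phase and mitosis lists were 0.055 and -0.019. The counts that differed between the compounds come from all libraries with the GC trend left in. Over all genes 2188 differed so by limma, 1605 with the GC trend removed and 1321 without P7C3-A20 replicate 3.

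Of 17 cell cycle inhibitors, 11 were below 0, with a median of -0.032 that includes Btg2. Cdkn1a, the p53 target p21, went the other way from Btg2, at 181, 193 and 192 TPM with DMSO, 206, 219 and 221 TPM with NAT and 208, 209 and 218 TPM with P7C3-A20, with no overlap (0.17 ± 0.03, limma adjusted p = 0.142, voom 0.0567). Ccng2, an unconventional cyclin, was at 59.9 to 66.0, 56.3 to 58.6 and 56.5 to 57.9 TPM (-0.12 ± 0.04, limma adjusted p = 0.233).

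Of 56 cytosolic ribosomal protein genes 50 were below 0, with a median of -0.052 (-0.084 for NAT and -0.018 for P7C3-A20). None of the 56 passed with limma or voom, and 14 were lower and 0 higher at an unadjusted limma p of 0.05, beside 3.06% and 10.1% of all genes. Rpl23a, a ribosomal protein gene outside the list and chosen after its values were seen, averaged 833, 753 and 763 TPM, all treated libraries being below the vehicle, and passed with voom (adjusted p = 0.0327, and 0.0345 with the GC trend removed) but not with limma (0.158). Rpl35 was at 470, 463 and 451 TPM with DMSO, 399 to 416 with NAT and 441 to 450 with P7C3-A20 (-0.12 ± 0.03, limma adjusted p = 0.154, voom 0.123, and 0.0362 by voom with the GC trend removed), all treated libraries being below the vehicle and the NAT libraries lowest. Ribosomal protein genes have many processed copies, so their levels are uncertain where the counting could split reads.

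The 23 growth factor genes had a median of 0.061, with 19 above 0. Igfbp5, a binding protein of insulin-like growth factors, was at 107, 119 and 118 TPM with DMSO, 125, 139 and 129 TPM with NAT and 142, 141 and 132 TPM with P7C3-A20 (0.23 ± 0.05, limma adjusted p = 0.142, voom 0.0140). Igfbp4, a related binding protein, was at 109 to 119, 118 to 128 and 131 to 145 TPM (0.20 ± 0.04), with P7C3-A20 above NAT by 0.15 on the log2 scale (NAT minus P7C3-A20 of -0.15, -0.26 to -0.05). Tyro3, a receptor tyrosine kinase for Gas6 and protein S, was at 75.5 to 78.8, 82.3 to 84.1 and 87.7 to 92.2 TPM (0.16 ± 0.03, limma adjusted p = 0.142). Bdnf, the neurotrophin, was at 3.47, 4.17 and 3.55 TPM with DMSO, 2.82 to 3.12 with NAT and 2.66 to 2.85 with P7C3-A20, below the vehicle in all 6 libraries (-0.30 ± 0.09, limma adjusted p = 0.231). Of the 17 circadian clock genes 12 were above 0, with a median of 0.074. No member had treated libraries all above or all below the vehicle, beside 4.31% and 1.38% of all genes. Voom and limma called 0 of them, and 4 were higher at an unadjusted limma p of 0.05, beside 10.1% of all genes. Nr1d1 was at 58.4 to 65.9, 64.2 to 68.1 and 67.6 to 72.8 TPM (0.13 ± 0.05, limma adjusted p = 0.277).

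Nampt, the enzyme P7C3-A20 has been reported to act on, was at 18.6, 18.5 and 19.8 TPM with DMSO, 20.7, 19.3 and 22.9 TPM with NAT and 19.6, 19.4 and 19.9 TPM with P7C3-A20. The groups overlapped, and the pooled log2 fold change was 0.09 ± 0.06 (-0.04 to 0.22, limma adjusted p = 0.526). Of 19 genes of NAD synthesis and use, 13 were above 0, with a median of 0.033, and none passed with limma or voom (2 higher and 0 lower at an unadjusted limma p of 0.05, beside 10.1% and 3.06% of all genes). Nmnat3, a mitochondrial NAD synthase, averaged 5.21, 6.19 and 5.86 TPM and Sirt1, an NAD-dependent deacetylase, 22.0, 20.9 and 20.7 TPM, neither overlapping the vehicle.

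Several structural RNAs varied widely between libraries of a group. Rn45s, the ribosomal RNA precursor, was at 21845, 21699 and 17228 TPM with DMSO, 13976, 10044 and 9583 TPM with NAT and 14304, 7947 and 14996 TPM with P7C3-A20. The row stands for a gene present in many copies. All treated libraries were below the vehicle, with P7C3-A20 replicate 2 the lowest, and the pooled -0.81 ± 0.19 missed the threshold (limma adjusted p = 0.163). After quantile normalization it was -0.26 (0.514). Lars2, which codes for the mitochondrial leucyl-tRNA synthetase and is no structural RNA, was at 2652, 2330 and 1905 TPM, at 1542, 1230 and 1259 TPM and at 1863, 1114 and 1510 TPM (-0.70 ± 0.15, limma adjusted p = 0.148, voom 0.000166). With DMSO its libraries ranked as those of Rn45s did, and P7C3-A20 replicate 2 was the lowest for both. The ranks of the treated libraries were otherwise alike only in part. Whether the level of the Lars2 row is that of its message alone was not tested. Rpph1, the RNA of RNase P, was at 36.0, 35.2 and 28.8 TPM, at 12.6, 21.3 and 15.4 TPM and at 22.5, 22.8 and 27.8 TPM (-0.72 ± 0.14, limma adjusted p = 0.142, voom 0.0347).

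Rmrp, the RNA of RNase MRP, chosen after its values were seen, was at 27.6, 35.7 and 29.7 TPM with DMSO, 11.8, 17.8 and 3.97 TPM with NAT and 11.4, 18.2 and 25.2 TPM with P7C3-A20 (-1.19 ± 0.35, limma adjusted p = 0.209, voom 0.0220). It had 5 to 42 reads per library, and NAT gave -1.59 and P7C3-A20 -0.79. The summed level of the structural non-coding list, most of it Rn45s, was 20407 to 25666 TPM with DMSO, 13469 to 18022 with NAT and 11044 to 17866 with P7C3-A20. The list as a whole was not lower. Over its 14 tested members the median pooled value was 0.024, with 8 above 0 and 6 below. TPM share a fixed total, and rescaling without Rn45s changed the median pooled value of all genes from 0.021 to 0.009.

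**Figure D5:**
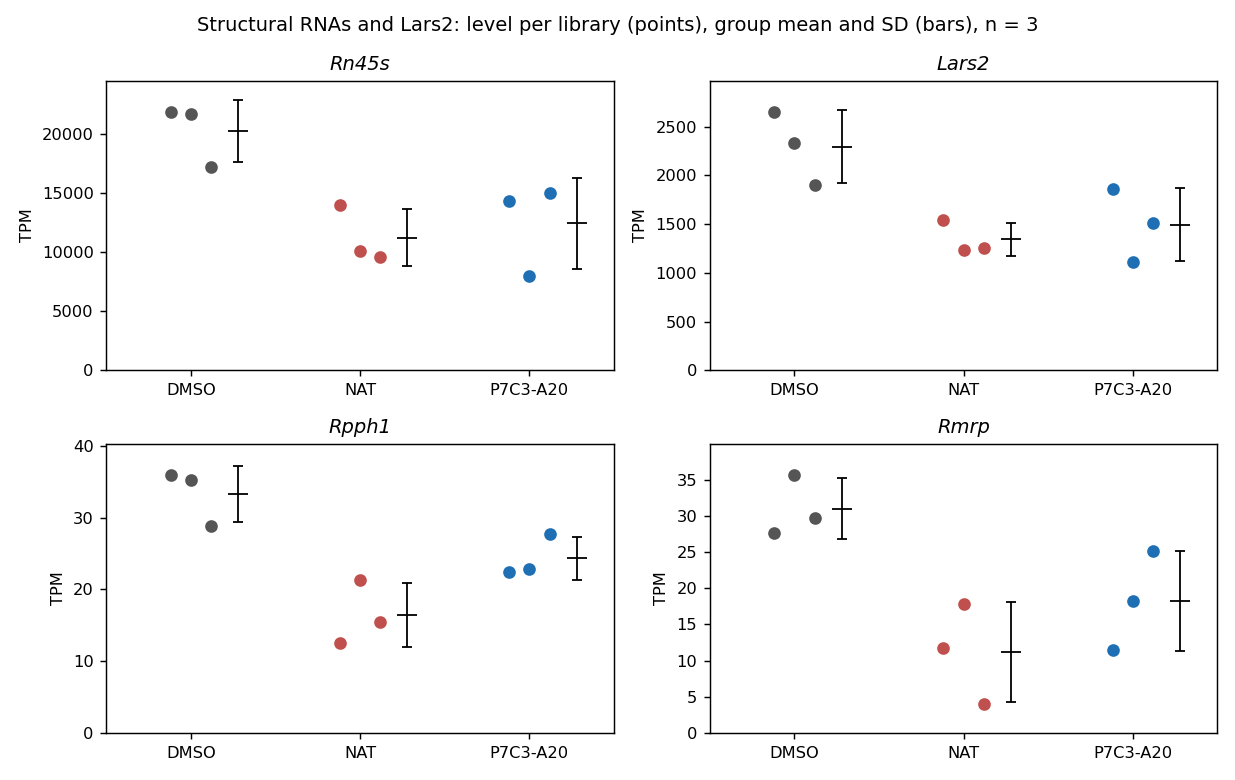
Levels in TPM (vertical axes, from 0) of Rn45s, Lars2, Rpph1 and Rmrp in each library (points) by treatment, with the group mean and SD (bars, n = 3). All 6 treated libraries lie below the DMSO libraries for each of them, with P7C3-A20 libraries of Rn45s spread from 7947 to 14996 TPM.

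Among stem cell genes, Fabp7, chosen after its values were seen, was at 12327, 12411 and 11868 TPM with DMSO, 11746, 11168 and 11320 TPM with NAT and 11236, 10924 and 10636 TPM with P7C3-A20. All treated libraries were below the vehicle, at a pooled -0.13 ± 0.04 (limma adjusted p = 0.193, voom 0.00545), and quantile normalization, which sets the top ranks of all libraries equal, turned this to 0.21. Hes5, a Notch effector, averaged 155, 121 and 142 TPM (-0.23, voom adjusted p = 0.0317) with overlapping libraries. NAT gave -0.34 and P7C3-A20 -0.12, and by voom the compounds differed at an adjusted p of 0.0487. The 18 stem cell and radial glia genes as a whole had a median of -0.011, with 9 above and 9 below 0. Cpe, a carboxypeptidase that matures neuropeptides, and Hepacam, an astrocyte adhesion protein, both chosen after their values were seen, were higher in all 6 treated libraries than in the vehicle, with pooled values of 0.18 each and voom adjusted p-values of 0.00777 and 0.0264.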

How the data were processed

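RNA of 9 samples was sequenced. Per the labels' protocols, an Illumina TruSeq RNA kit made the libraries, with nothing said of strand, so overlapping and antisense genes cannot be told apart. The authors deposited 1 table of TPM for 23420 gene names, each column summing to 1000000, in which 27 names had become dates. Bowtie 0.12.2, mm8 and mm9 are named in the submitters' processing notes. The read counter is not given in the sources used here.

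The pooled contrast, with a weight of 0.5 for each compound, was tested with limma 3.58.1 (R 4.3.3) on log2(TPM + 1) for genes at 1 TPM or more in at least 3 libraries, from 3 group means with 6 residual degrees of freedom, two-sided, with Benjamini-Hochberg adjustment over all genes and a threshold of 0.05. Fold changes on this scale understate those of low genes. Whole reads were recovered from the TPM steps for 19300 of 19302 rows with any value (99.99%, tolerance 0.001; not Rn45s and Malat1) and used for depth and voom, which called 73 genes. The fit was tested on simulated data. GC content was that of the longest GENCODE transcript (GRCm38) of each name, found for 98.33% of rows. The rest was done in Python 3.11.15 (numpy 2.4.6, pandas 2.3.3, plots with matplotlib 3.10.9).

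Members and lists were chosen with earlier results of these data known. Named genes were, per direction, the 10 called with the largest change, no overlap and 2 TPM or more in a group mean, filled with those of lowest p, plus the 4 members of lowest p from the 8 lists farthest from the median of all genes and from the immediate early genes, and Nampt, Fosb, Btg2, C1ql1, Cacng5, Rn45s and Rpph1. List members are also given as group means, and a few genes are not reported here. Alternatives set in advance were a replicate block, GC trend removal (spline, 5 degrees of freedom) alone and with the block, quantile normalization, voom alone and with the block, robust empirical Bayes, no filter or 5 TPM, a pseudocount of 0.1, the treated libraries as 1 group and the omission of each library. Added after seeing the data: voom with GC trend removal or with each library omitted, a minimum of 10 reads and rescaling without Rn45s.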

Additional observations from a re-analysis of the deposited data

How the results depend on the processing

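Over 58 genes and 1833 gene settings, 1551 kept their side of the threshold, 36 lost the call, 246 gained it and 0 called values changed sign. Of the 1551, 1 had the other sign: Fabp7, not called, at 0.21 after quantile normalization. The 8 list medians, less that of all genes, kept their sign in all 256 settings, and 14 moved by more than the limit for a shift. The number of pooled limma calls, 3, was 1 with a minimum of 10 reads, 0 with a minimum of 5 TPM (1654 at an unadjusted p of 0.05) and 0 with a pseudocount of 0.1 (1817), 73 with voom, and 2 to 8 with 1 library left out, where it reached 8 without DMSO replicate 2, NAT replicate 1 or P7C3-A20 replicate 3. The pooled voom number ranged from 7 to 305 with 1 library left out. For NAT against DMSO, 4 by limma, it was 2 with a minimum of 5 TPM, 1 with the pseudocount, 29 with voom and 1 to 11 with 1 library left out; the voom number was 55 with the GC trend removed and 10 to 230 with 1 library left out. For P7C3-A20 against DMSO, 3 by limma, it was 1 with a minimum of 10 reads, 0 with 5 TPM, 0 with the pseudocount, 270 with voom and 1 to 10 with 1 library left out; the voom number was 49 with the GC trend removed and 0 to 576 with 1 library left out. For NAT against P7C3-A20, 0 by limma, it was 301 with voom and 0 to 2 with 1 library left out; the voom number was 64 with the GC trend removed and 8 to 782 with 1 library left out. The causes were not tested.

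Over all genes, libraries of the same replicate number deviated with little correlation. For 9 same-number pairs it ran from -0.062 to 0.067, and 3 of 9 libraries correlated best with their own number. A correlation over all genes cannot show whether some genes share a replicate effect. With the replicate block the limma calls were 8 pooled, 7 for P7C3-A20 and 1 for NAT against P7C3-A20, and with the block and the GC trend removed 6 pooled and 1 for P7C3-A20. Of the genes named, Fosb and Clk1 passed the pooled limma test with the block (adjusted p of 0.00278 and 0.0358) and with the block and the GC trend removed (0.00209 and 0.0323). With voom and the block the calls were 236 pooled, 95 for NAT, 765 for P7C3-A20 and 789 for NAT against P7C3-A20, beside 73, 29, 270 and 301 without the block.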

Other observations

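Genes that voom called in the pooled comparison and that are not described above were looked at after their values were seen, and none of them passed with limma (adjusted p of 0.142 to 0.242). On the higher side, Kcnt1, a sodium-activated potassium channel, averaged 6.50, 8.25 and 9.14 TPM in the order DMSO, NAT and P7C3-A20 (voom adjusted p = 0.0415). Pitpnm2, a phosphatidylinositol transfer protein, averaged 26.0, 32.3 and 32.8 TPM (0.00545), Padi2, a peptidyl arginine deiminase, 17.0, 21.2 and 21.4 TPM (0.0220), Lrp4, an agrin receptor, 60.8, 69.6 and 70.8 TPM (0.0173) and Psap, the precursor of the saposins, 1414, 1556 and 1593 TPM (0.0422, and 0.0555 with the GC trend removed). Apart from Kcnt1, the treated libraries of these genes did not overlap the vehicle. The complement gene C4b averaged 22.8, 28.3 and 29.7 TPM (0.0250) with overlapping libraries.

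On the lower side, Car10, a carbonic anhydrase-related secreted protein, averaged 3.81, 2.72 and 2.20 TPM (voom adjusted p = 0.0382), Pcdhb11, a clustered protocadherin, 6.97, 5.48 and 4.84 TPM (0.0315) and Ets1, a transcription factor, 79.6, 68.6 and 71.4 TPM (0.0220), none overlapping the vehicle. Amotl2, a Hippo pathway scaffold, averaged 64.0, 50.9 and 58.3 TPM (0.0150) with overlapping libraries.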
